A study of Mus musculus with 62 samples.

Results

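Secreted synapse organizers are proteins that neurons release into, or expose at, the synaptic cleft, where they join the presynaptic to the postsynaptic side. The 10 genes described here are C1ql2, C1ql3, Cbln1, Cbln2, Cbln4, Nrn1, Nptx1, Nptx2, Nptxr and Dkk3. They were taken by gene symbol through the Ensembl identifiers of the deposited count tables, as genes already known from these data for their levels in each region, for how the nucleus accumbens (NAc) differs in them from prefrontal cortex (PFC), and for their covariance with Slc17a7 across NAc libraries. Since the genes were chosen by these measured values, all of them are given as a description, with no test. All 10 had a row among the 12047 genes of the suprachiasmatic nucleus (SCN) table, and 8 had a row among the 11569 genes of the NAc and PFC table. C1ql2 and Cbln1 were not analysed in the NAc and PFC. The tables together held 12483 genes.

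RNA-seq libraries came from frozen tissue punches of 26 C57BL/6J mice, with 19 SCN, 26 NAc and 17 PFC libraries, taken at ZT6, that is 6 h after lights on, about 4 weeks after a circadian rhythm disruption (CRD) paradigm of repeated light/dark reversals or a handling control. The labels name each library by mouse number and region, and describe all the tissue together as adolescent CRD, adult CRD and matching controls. The paper names only adolescent CRD mice and their controls as the source of tissue. Whether any library came from an adult CRD mouse is therefore not known. The labels do not say which mouse was CRD or control, female or male. Each region thus holds CRD and control mice of both sexes mixed, and neither effect was tested. In a punch of mixed tissue, fewer cells of a type and less RNA per cell cannot be told apart.

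All 10 genes are annotated as protein coding on GRCm38. C1ql2 (ENSMUSG00000036907) lies on chromosome 1 from 120340582 to 120343174, and C1ql3 (ENSMUSG00000049630) on chromosome 2 from 13003457 to 13011806. Cbln1 (ENSMUSG00000031654) lies on chromosome 8 from 87468405 to 87472609, Cbln2 (ENSMUSG00000024647) on chromosome 18 from 86711110 to 86718283, and Cbln4 (ENSMUSG00000067578) on chromosome 2 from 172036233 to 172043466. Nptx1 (ENSMUSG00000025582) lies on chromosome 11 from 119538719 to 119547753, Nptx2 (ENSMUSG00000059991) on chromosome 5 from 144545902 to 144557478, and Nptxr (ENSMUSG00000022421) on chromosome 15 from 79786351 to 79804766. Nrn1 (ENSMUSG00000039114) lies on chromosome 13 from 36725361 to 36735131, and Dkk3 (ENSMUSG00000030772) on chromosome 7 from 112116017 to 112159057. The sources used here do not state whether counting used strand, and 3 of the genes share exon bases with another gene. Nrn1 shares 501 bases, 22.3% of its exons, with Fars2 on the opposite strand. C1ql3 shares 1547 bases, 61.0% of its exons, with the opposite-strand model Gm37811, and Nptxr shares 890 bases, 17.2%, with Npcd on the same strand. The authors counted with HTSeq in union mode, which counts a read that overlaps 2 genes for neither, so the levels of these 3 genes, also per kilobase, could be too low where the annotation the authors used held both genes. Its release is not given in the sources used here.

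The C1q-like proteins (C1ql2 and C1ql3) and the cerebellins (Cbln1, Cbln2 and Cbln4) are small secreted relatives of complement C1q. The C1q-like proteins bind the adhesion receptor Adgrb3, while cerebellins bind neurexins on the presynaptic side and delta glutamate receptors such as Grid1, or in the case of Cbln4 also Dcc and Neo1, on the other. The neuronal pentraxins Nptx1 and Nptx2 and their membrane-bound relative Nptxr gather AMPA-type glutamate receptors, Nrn1 (neuritin) is a lipid-anchored protein induced by neuronal activity, and Dkk3 is the divergent member of the Dickkopf family of secreted Wnt modulators. Slc17a7 encodes the vesicular glutamate transporter of most cortical excitatory neurons, and projection neurons of the NAc are GABAergic.

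RefSeq promoter windows on GRCm38.p6 were found for 3 of the 10 genes. The window of C1ql3 lies within annotated exons and is not shown. Below are the 250 bases before the start of C1ql2 (chr1:120340332-120340581, plus strand), the member whose level ran lowest where SCN neuron genes were highest, and of Cbln4 (chr2:172043467-172043716, minus strand), the one member with a higher level in the NAc than in the PFC. Both are written 5′ to 3′ in the direction of the gene. Capitals mark the GC box CCGCCC, searched on both strands.
C1ql2: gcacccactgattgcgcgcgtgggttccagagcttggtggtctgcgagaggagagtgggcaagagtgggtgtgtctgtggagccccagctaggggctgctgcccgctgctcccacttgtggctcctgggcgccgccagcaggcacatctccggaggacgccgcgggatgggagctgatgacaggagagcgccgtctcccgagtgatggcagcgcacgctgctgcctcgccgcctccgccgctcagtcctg
Cbln4: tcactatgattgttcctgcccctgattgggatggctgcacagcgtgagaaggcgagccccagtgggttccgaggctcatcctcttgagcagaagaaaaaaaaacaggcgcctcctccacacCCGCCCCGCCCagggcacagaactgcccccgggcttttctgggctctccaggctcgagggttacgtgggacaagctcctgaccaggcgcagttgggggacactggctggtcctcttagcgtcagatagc
The C1ql2 stretch held no CCGCCC. The Cbln4 stretch held 2 that overlap by a base, beginning 129 and 124 bases before the start. Of 32851 windows of the same length, 32.7% held at least 1 CCGCCC. The E-box CACGTG, the sequence bound by the clock proteins CLOCK and BMAL1, was found in neither stretch and in 6.02% of all windows. The cyclic AMP response element TGACGTCA was found in neither and in 1.55% of all windows.

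Total counts ran from 28879724 to 60009482 in the NAc, from 31216225 to 50333579 in the PFC and from 16496666 to 35389742 in the SCN, and mitochondrial ribosomal RNA took a median of 49.4%, 46.6% and 38.2% of them. Marker genes of each region followed the labels, with exceptions that touch the results. The summed level of 6 striatal markers was 631 to 1579 CPM (counts scaled to the size of the library, with TMM) in the NAc and 28.1 to 73.4 CPM in the PFC. The summed level of 6 cortical markers was 733 to 875 CPM in the PFC and spread from 8.90 to 433 CPM in the NAc, the highest in NAc J1199, with Neurod2 at 0 in at least 1 NAc library. In the SCN, the 9 SCN neuron markers summed to 89.2 to 463 CPM. SCN J1199 and SCN J1140 held the striatal gene Ppp1r1b at 134 CPM and 66.9 CPM, against at most 9.87 CPM in the others. SCN J1165 had 53.1 CPM of Xist, while the NAc and PFC libraries of that mouse number had 0.589 CPM and 0.372 CPM. The covariance with Slc17a7 and the relations in the SCN are therefore also given without the libraries that stand apart.

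C1ql3 was high in the PFC, intermediate in the SCN and low in the NAc. In the PFC its level ran from 124 to 208 CPM (median 158 CPM). In the NAc it ran from 3.32 to 42.6 CPM (median 8.33 CPM), and every NAc library was below every PFC library. In the SCN it ran from 10.9 to 88.1 CPM (median 57.5 CPM). All 19 SCN libraries were below the lowest PFC library, and 16 were above the highest NAc library, or 12 when all 62 libraries were scaled together. The order PFC, SCN, NAc held under both scalings, with some overlap between the SCN and the NAc. The SCN has a table of its own and was not tested against the other regions. C1ql2, its paralog, had a row for the SCN alone, where it ran from 0.676 to 13.8 CPM (median 2.56 CPM). Per kilobase of exon, the median level in the SCN was 22.7 CPM for C1ql3, the highest of the 10 genes, and 1.28 CPM for C1ql2, the lowest.

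The cerebellins differed from each other in where they were highest. Cbln2 ran from 5.03 to 27.1 CPM in the SCN (median 19.03 CPM), and from 9.63 to 21.1 CPM in the PFC (median 16.02 CPM). These regions overlapped widely and cannot be ordered. In the NAc Cbln2 ran from 0.0851 to 8.97 CPM (median 2.07 CPM), below every PFC library and spread over a wider fold than any other member. Cbln4 was ordered otherwise. It was highest in the SCN, from 5.97 to 23.7 CPM (median 11.5 CPM). In the NAc it ran from 1.78 to 8.20 CPM (median 5.40 CPM), and in the PFC from 0.806 to 4.04 CPM (median 2.75 CPM). All 19 SCN libraries were above every PFC library, while the NAc overlapped both. Of 26 NAc libraries, 19 were above the highest PFC library. Cbln1, the cerebellin best known from cerebellar granule cells, had a row for the SCN alone, where it ran from 8.02 to 41.3 CPM (median 19.4 CPM). Per kilobase of exon, the SCN medians of Cbln1 and Cbln2 were 6.40 CPM and 6.57 CPM.

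The 3 pentraxin genes were each highest in the PFC. Nptx1 ran from 57.2 to 124 CPM in the PFC (median 93.2 CPM). In the NAc it ran from 4.34 to 65.6 CPM (median 21.3 CPM), and in the SCN from 14.0 to 59.2 CPM (median 27.8 CPM). The NAc and SCN levels of Nptx1 overlapped along most of their ranges, and 25 of 26 NAc libraries were below every PFC library. Nptxr, the membrane-bound member, ran from 143 to 325 CPM in the PFC (median 255 CPM). It ran from 13.3 to 108 CPM in the NAc (median 36.0 CPM), and from 42.7 to 164 CPM in the SCN (median 60.4 CPM). The highest SCN value of Nptxr was that of J1159. Mitochondrial ribosomal RNA took 24.8% of the counts of that library, against an SCN median of 38.2%. The part of this share in the value was not tested. Nptx2, whose expression is induced by activity, had the lowest median of the family per kilobase of exon in every region. It ran from 17.2 to 34.2 CPM in the PFC (median 23.2 CPM), and from 4.40 to 12.3 CPM in the NAc (median 7.86 CPM). In the SCN it ran from 0.827 to 19.8 CPM (median 3.71 CPM). The NAc libraries of Nptx2 and Nptxr were all below the PFC libraries. The high SCN value of Nptx2 was a single library, J1018, which also had the highest Cbln4 and C1ql2 and the lowest C1ql3 and Cbln2 of the SCN.

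Nrn1 and Dkk3 also had their highest levels in the PFC, but spread very differently in the NAc. Nrn1 ran from 132 to 212 CPM in the PFC (median 154 CPM). In the NAc it ran from 1.49 to 53.7 CPM (median 9.32 CPM), a span of 36.0-fold, and in the SCN from 4.02 to 34.1 CPM (median 17.2 CPM). Dkk3 ran from 199 to 280 CPM in the PFC (median 255 CPM). In the NAc it ran from 38.5 to 81.4 CPM (median 55.6 CPM), a span of only 2.11-fold, and in the SCN from 24.4 to 50.7 CPM (median 32.8 CPM). For both genes the PFC stood above both other regions without overlap. Per kilobase of exon, the PFC medians of Dkk3, Nrn1, C1ql3 and Nptxr were 75.9, 68.6, 62.4 and 49.3 CPM, and in the NAc Dkk3 at 16.6 CPM was ahead of Nptxr at 6.96 CPM.

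**Figure D1:**
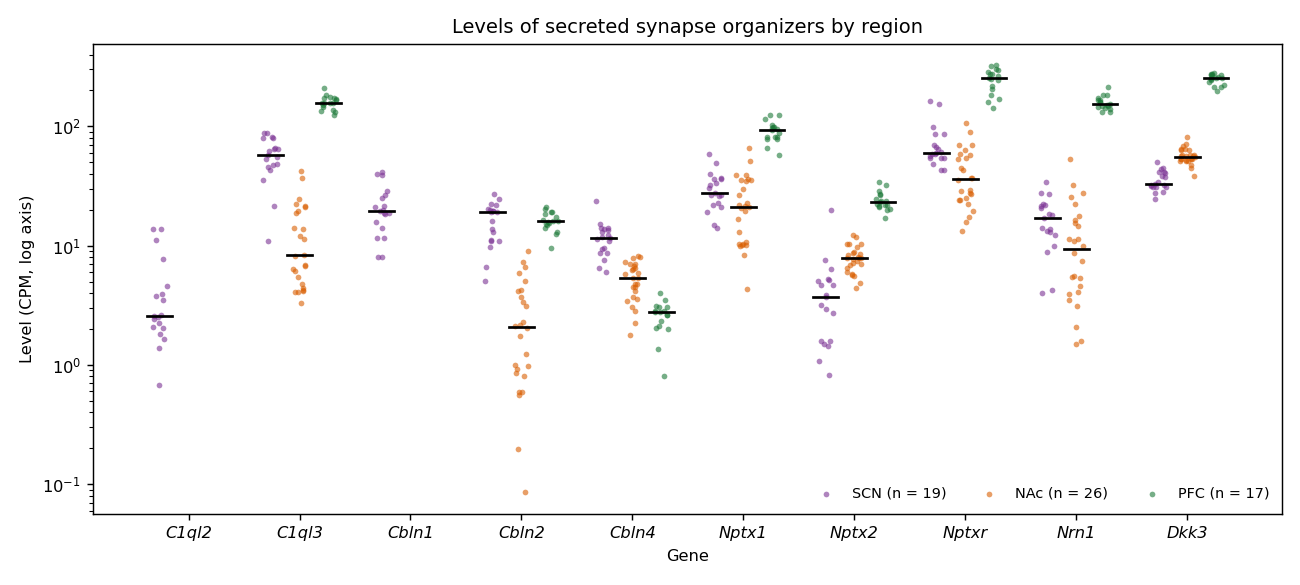
Levels of the 10 genes in every library, in CPM on a log axis, with SCN, NAc and PFC side by side and a bar at each median. The PFC points stand above the NAc points for 7 genes with 1 NAc library overlapping in Nptx1, Cbln4 runs the other way, and C1ql2 and Cbln1 have SCN points alone.

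Between the NAc and the PFC, 7 of the 8 members measured were lower in the NAc and Cbln4 was higher. In edgeR's quasi-likelihood fit over 11569 genes, the log2 fold change of NAc against PFC was -3.66 (SE 0.31) for Nrn1 and -3.62 (SE 0.26) for C1ql3, or 12.6-fold and 12.3-fold lower. It was -2.55 (SE 0.29) for Cbln2, -2.54 (SE 0.19) for Nptxr and -2.13 (SE 0.060) for Dkk3. Nptx1 and Nptx2 had the smaller differences of -1.93 (SE 0.21) and -1.60 (SE 0.099). Cbln4 had a log2 fold change of 1.04 (SE 0.16), or 2.05-fold higher. The median over the 8 members was -2.34, against 0.016 over all genes. A gene was called at a fold of 1.2 or more with an adjusted p below 0.05. By this rule 21.7% of all genes were lower and 23.7% higher in the NAc. For 6 members every NAc library was below every PFC library, as it was for 4.67% of all genes, while 4.83% of all genes had every NAc library above every PFC library. These members were chosen with this contrast known, so nothing is read from the counts. Fars2, which shares exon bases with Nrn1, had a log2 fold change of the other sign, 0.27 (SE 0.11).

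The same differences were seen within mice. In the 17 mice with both regions, the 7 lower members were lower in the NAc in 17 of 17 mice, and Cbln4 was higher in 14 of 17. Within mice the difference in log2 CPM (with a prior count of 2) of Dkk3 stayed between -2.84 and -1.96, whereas that of Cbln2 ran from -7.34 to -1.38 and that of Nrn1 from -6.65 to -2.84. The lowest values were those of J965 for Cbln2 and Nrn1 and of J1019 for Dkk3. Mitochondrial ribosomal RNA took 69.3% of NAc J965 and 68.7% of NAc J1019, against an NAc median of 49.4%. Cbln2 had a count of 2 in NAc J965. The part of the share in these low values was not tested. With the mouse as a block, the log2 fold change was -4.48 for C1ql3, -4.59 for Nrn1, -3.43 for Cbln2 and -2.57 for Nptx1, each over 1.5 times the fold of the fit without a block. The same mice without the block gave -4.11, -4.15, -2.97 and -2.35. Within the lower range of mouse numbers (up to J1021) and the upper range (from J1140), C1ql3 had log2 fold changes of -3.63 and -3.61, and Cbln2 of -2.98 and -2.26.

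**Figure D2:**
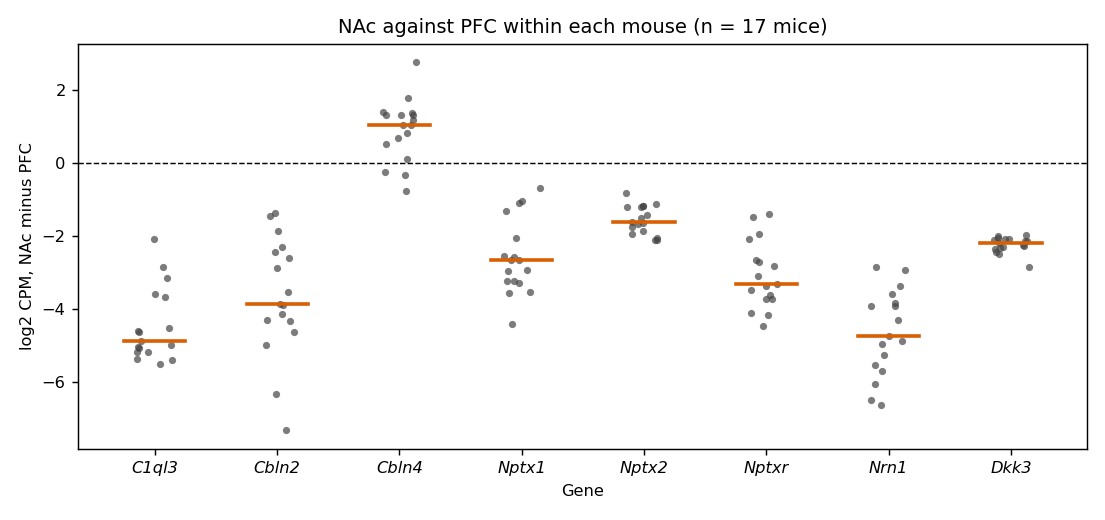
The difference in log2 CPM, NAc minus PFC, with a prior count of 2, in each of the 17 mice with both regions, 1 point per mouse with a bar at the median and a dashed line at equal levels. All mice lie below the line for 7 genes and 14 of 17 lie above it for Cbln4, and the Dkk3 points are the most tightly grouped.

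Within the NAc, 5 members rose and fell with Slc17a7 from library to library and 3 did so little or not at all. Slc17a7 itself ran from 4.60 to 340 CPM in the NAc (median 64.6 CPM), and from 543 to 647 CPM in the PFC (median 609 CPM). Over 26 NAc libraries, Pearson's r of log2 CPM with Slc17a7 was 0.97 for Nptx1 (rho 0.95), 0.93 for Cbln2 (rho 0.94), 0.90 for Nrn1 (rho 0.89), 0.88 for C1ql3 (rho 0.90) and 0.86 for Nptxr (rho 0.88). It was 0.51 for Dkk3 (rho 0.42), 0.30 for Cbln4 (rho 0.27) and -0.29 for Nptx2 (rho -0.24). Over all other genes the median r was -0.017, 17.1% had an r over 0.5 and 16.1% had one under -0.5. Only 0.035% of genes had an r as high as Nptx1, and 16.3% one as high as Dkk3. The libraries share their punches, depth and composition, and these genes were chosen with this covariance known, so no p is given.

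The 5 members followed Slc17a7 in both ranges of mouse numbers. In the lower and upper range, r was 0.97 and 0.96 for Nptx1, 0.91 and 0.94 for Cbln2, 0.90 and 0.93 for Nrn1, 0.92 and 0.90 for C1ql3, and 0.88 and 0.82 for Nptxr. NAc J1199, which had the highest Slc17a7, was also the highest NAc library for every member except Cbln4. Without it, r of the 5 ran from 0.84 for Nptxr to 0.96 for Nptx1, and r of Nptx2 was -0.46. Other cortical markers moved with Slc17a7 too. Its r was 0.97 with Tbr1, 0.96 with Neurod6, 0.93 with Neurod2, 0.60 with Cux2 and 0.43 with Fezf2. All 6 striatal markers had a negative r, from -0.81 for Drd1 to -0.47 for Drd2. Slc17a7 had an r of 0.13 with the log2 total count and of -0.54 with the mitochondrial ribosomal RNA share. The mitochondrial share had an r of -0.75 with Nptxr, -0.67 with Nptx1, -0.66 with Dkk3 and -0.58 with Cbln2, and of -0.42 to 0.15 with the other 4 members. For Dkk3 this was farther from 0 than its r of 0.51 with Slc17a7. The part of the share and of the total count in the members' levels was not tested.

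The members differed in how steeply they followed Slc17a7 and in what level remained where it was low. Per doubling of Slc17a7, log2 CPM rose by 0.82 (SE 0.067) for Cbln2, 0.70 (SE 0.069) for Nrn1, 0.55 (SE 0.062) for C1ql3, 0.53 (SE 0.029) for Nptx1 and 0.39 (SE 0.048) for Nptxr. The slope was 0.064 (SE 0.022) for Dkk3 and -0.062 (SE 0.042) for Nptx2. A straight line in CPM through the 26 libraries, read at a Slc17a7 of 0, gave 1.44 CPM (SE 1.64) for Nrn1 and 2.90 CPM (SE 1.22) for C1ql3, which are 0.931% and 1.84% of their PFC medians. The same reading gave 1.82% of the PFC median for Cbln2, 7.69% for Nptxr and 9.49% for Nptx1. It was 20.3% for Dkk3, 33.6% for Nptx2 and 180% for Cbln4. Without NAc J1199 the slopes of the 5 ran from 0.37 for Nptxr to 0.82 for Cbln2, and the reading for Nrn1 rose to 1.83% of its PFC median (2.83 CPM, SE 1.60). The readings of the other 7 members moved by less than 1.5 times, to 1.97% for C1ql3, 1.32% for Cbln2 and between 7.81% and 169% for the rest.

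**Figure D3:**
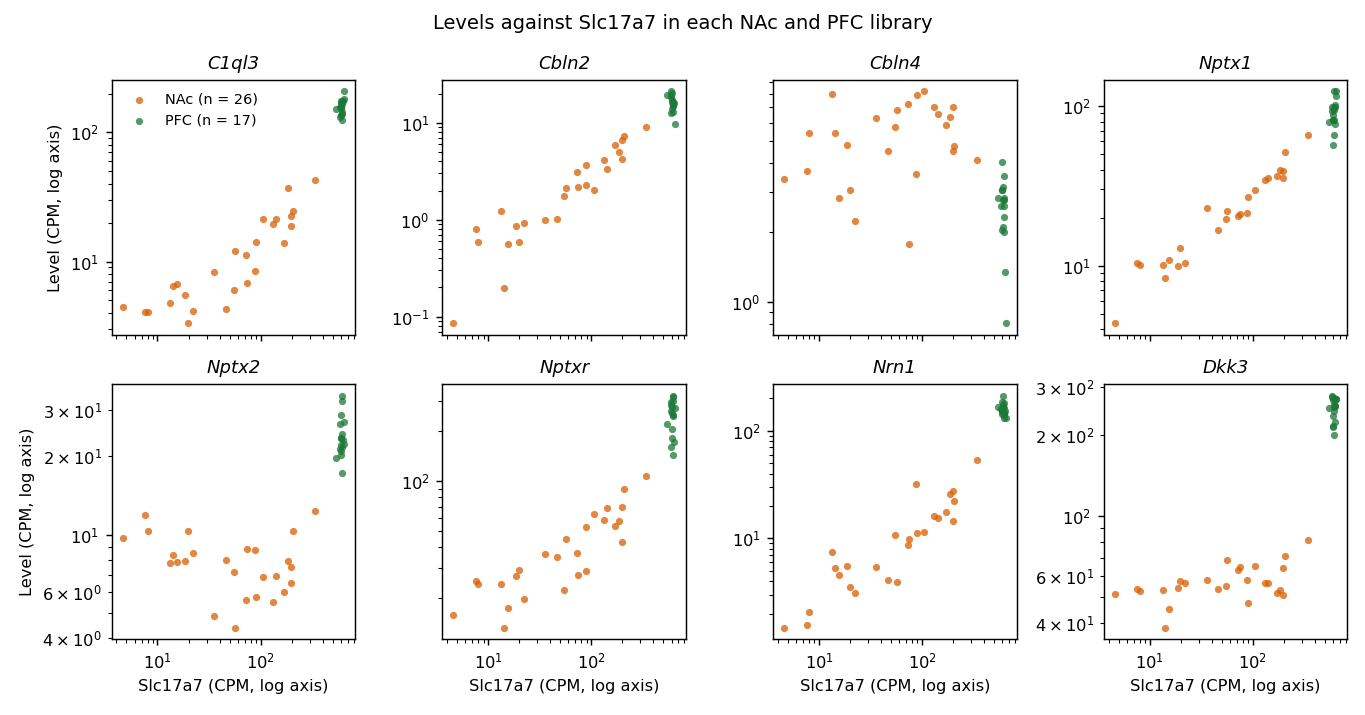
Level of 8 genes against Slc17a7 in each NAc and PFC library, both in CPM on log axes. Along the NAc points Nptx1, Cbln2, Nrn1, C1ql3 and Nptxr rise toward the PFC points, with r from 0.86 to 0.97. Dkk3 (r = 0.51), Cbln4 (r = 0.30) and Nptx2 (r = -0.29) scatter and change little with Slc17a7.

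In the PFC, where Slc17a7 varied little, no member was related to it beyond the threshold. Of 8 relations over 17 libraries, 0 passed a two-sided permutation test adjusted over 34 relations, and 2 had an unadjusted p under 0.05. Cbln2 had an r of -0.62 (rho -0.64, permutation p = 0.012, adjusted p = 0.12), with an r of -0.96 among lower mouse numbers, which passed the test there, and of -0.54 among upper ones. Cbln4 had an r of -0.55 (rho -0.53, permutation p = 0.038, adjusted p = 0.22), with -0.49 and -0.62 within the ranges. Without the 2 libraries farthest from the median of Slc17a7, r was -0.49 for Cbln2 and -0.56 for Cbln4. Nptx1, which had an r of 0.97 in the NAc, had an r of 0.46 in the PFC (rho 0.54, permutation p = 0.066, adjusted p = 0.26).

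Nptx2 and Nrn1 are known as activity-regulated genes, so the members were also set against a score of 9 immediate early genes (the mean z-score of Fos, Fosb, Junb, Egr1, Egr3, Arc, Npas4, Nr4a1 and Dusp1). None passed in the NAc (0 of 8, with 1 unadjusted p under 0.05) or in the PFC (0 of 8, with 0 unadjusted), by permutation tests adjusted over the 34 relations. In the NAc Nptx2 came nearest, with an r of 0.47 (rho 0.30, permutation p = 0.015, adjusted p = 0.12), an r of 0.23 and 0.64 in the lower and upper ranges, and 0.29 without the 2 farthest libraries. Nrn1 had an r of -0.13 in the NAc (adjusted permutation p = 0.81) and -0.40 in the PFC (adjusted permutation p = 0.30). The score and Slc17a7 had an r of -0.09 in the NAc. The genes of the score moved apart there, with r with Slc17a7 of 0.67 for Fos, -0.58 for Fosb and -0.73 for Egr3. For the other genes of the score it was between -0.21 and 0.31. The score is their mean, so it cannot show whether a member followed any single gene.

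In the SCN, C1ql3 rose and C1ql2 fell with the level of SCN neuron genes. The SCN neuron score was the mean z-score of the peptides Avp, Vip, Grp, Nms and Prok2 with Six6, Lhx1, Gpr176 and Syt10, and it ran from -1.90 in SCN J1199 and -1.79 in SCN J1018 to 0.91 in SCN J1160. C1ql3 had an r of 0.92 (rho 0.93, permutation p = 1e-05, the smallest the resamples can give, adjusted p = 0.00034) over 19 libraries. Within the ranges of mouse numbers its r was 0.93 (lower) and 0.95 (upper). It was 0.90 without the 2 farthest libraries, and 0.91 once SCN J1199 and SCN J1140 were removed. Of 12038 genes, 0.058% had an r as high. The 3 libraries with the lowest scores had 21.4, 10.9 and 35.7 CPM of C1ql3, below the other 16, and the 4 with the highest had 80.5 to 88.1 CPM.

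C1ql2 had an r of -0.74 with the score (rho -0.70, permutation p = 0.0005, adjusted p = 0.0085), so that the paralogs moved in opposite directions, with an r of -0.69 between them. J1018, J1017, J1011 and J1199 had 7.66 to 13.8 CPM of C1ql2, and the other 15 libraries at most 4.58 CPM. The r of C1ql2 was -0.89 in the lower range (7 libraries), -0.59 in the upper range (12 libraries) and -0.64 without the 2 farthest libraries, and in each of these it no longer passed the test. It was -0.77 after removal of SCN J1199 and SCN J1140. With SCN J1018 left out, r was -0.67 for C1ql2 and 0.95 for C1ql3, and with SCN J1165 left out it was -0.77 and 0.92, and all of these passed. The other 8 members did not pass. Nptx2 had an r of -0.52 (rho -0.37, permutation p = 0.023, adjusted p = 0.16), and one of -0.33 when SCN J1018 was left out. Cbln4 had an r of -0.43 (rho -0.42, permutation p = 0.069, adjusted p = 0.26), which became -0.73 and passed the test without SCN J1199 and SCN J1140. Its r was -0.88 in the lower range, which passed, 0.01 in the upper range, and -0.20 when SCN J1018 was left out. Scores of other cells that a punch could hold (ependymal cells, oligodendrocytes, astrocytes, striatal neurons, and Cux2 as the 1 cortical marker in the table) had r of -0.37 to 0.31 with C1ql3 and of -0.41 to 0.20 with C1ql2. With SCN J1199 and SCN J1140 removed, these scores had r of -0.12 to 0.40 with C1ql3 and of -0.47 to 0.27 with C1ql2. The part of punch content in these relations was not tested.

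**Figure D4:**
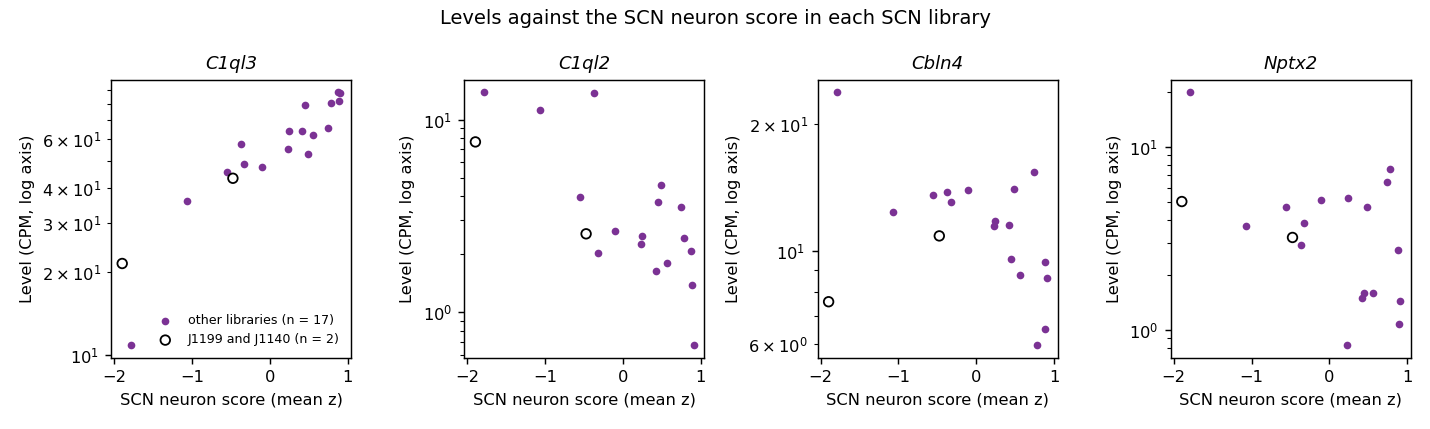
Level in CPM (log axis) against the SCN neuron score (mean z-score of 9 genes) in each of 19 SCN libraries, with the 2 libraries that hold striatal genes, J1199 and J1140, as open circles. C1ql3 rises with the score (r = 0.92) and C1ql2 falls (r = -0.74), while Cbln4 and Nptx2 scatter and have their highest point in J1018.

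The receptors and partners listed for these proteins, which the choice of members did not use, did not share the direction of the members as a group. Of 19 listed, 18 were tested between the NAc and the PFC, 8 were higher in the NAc, 6 were lower and 4 were not called, with a median log2 fold change of 0.13 against 0.016 over all genes. In all, 45.4% of genes were called. The p-values below are edgeR's, adjusted by Benjamini-Hochberg over all genes, and counts of mice are over the 17 with both regions. Dcc, the netrin receptor that Cbln4 binds, had a log2 fold change of 1.75 (SE 0.084, adjusted p = 4.5e-23) and was higher in 17 of 17 mice, so ligand and receptor were both higher in the NAc. Neo1, the related receptor, had one of -0.30 (SE 0.054, adjusted p = 5.7e-06) and was lower in 16 of 17. The delta receptor Grid1, a partner of the cerebellins, had a log2 fold change of 0.57 (SE 0.062, adjusted p = 4.2e-11) and was higher in 17 of 17 mice, in the region where Cbln2 was lower.

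Kainate receptors were divided, and so were calls among presynaptic neurexins. Nrxn2 was lower in the NAc with a log2 fold change of -0.67 (SE 0.11, adjusted p = 1.6e-06), in 17 of 17 mice, whereas Nrxn3 had 0.16 (SE 0.086, adjusted p = 0.098). Grik2 was higher with 1.10 (SE 0.093, adjusted p = 2.0e-14) and Grik4 lower with -0.72 (SE 0.090, adjusted p = 2.1e-09), each in 17 of 17 mice. Adgrb3, the receptor of the C1q-like proteins, had 0.29 (SE 0.063, adjusted p = 0.00010), just past the fold threshold at 1.22-fold, and was higher in 15 of 17. Thus Adgrb3 was slightly higher in the region where C1ql3 was lower. Across NAc libraries it had an r of -0.74 with Slc17a7 and of 0.81 with the mitochondrial ribosomal RNA share. With Slc17a7, r was -0.78 for Grik2, -0.77 for Dcc, -0.78 for Lrp6 and 0.67 for Nrxn2. Grid1 and Gria1 each had 0.07. The part of punch content and of the share in the receptor differences was not tested.

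The AMPA receptor subunits that pentraxins gather moved both ways. Gria1 was higher in the NAc by 0.40 on the log2 scale (SE 0.064, adjusted p = 5.0e-07, higher in 15 of 17 mice). Gria3 had -0.62 (SE 0.079, adjusted p = 3.2e-09) and Gria4 -0.71 (SE 0.048, adjusted p = 1.5e-17), lower in 17 of 17 mice each, and Gria2 had 0.09 (SE 0.052, adjusted p = 0.13). Adam17, the protease that releases Nptxr from the membrane, had 0.32 (SE 0.061, adjusted p = 1.2e-05, higher in 14 of 17). Of the genes listed with Dkk3, whose binding to it was not examined here, Lrp6 had 0.33 (SE 0.057, adjusted p = 1.7e-06, higher in 16 of 17). Lrp5 had -0.28 (SE 0.13, adjusted p = 0.058) and Kremen1 -0.05 (SE 0.080, adjusted p = 0.59), and neither was called. With the mouse as a block Lrp5 was called as lower, at -0.47 (SE 0.16, edgeR adjusted p = 0.014), and it was called in the same mice without the block too, at -0.42 (adjusted p = 0.010). Lrp5 was the one receptor whose call differed between the fit with the block and the fit of all libraries.

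**Figure D5:**
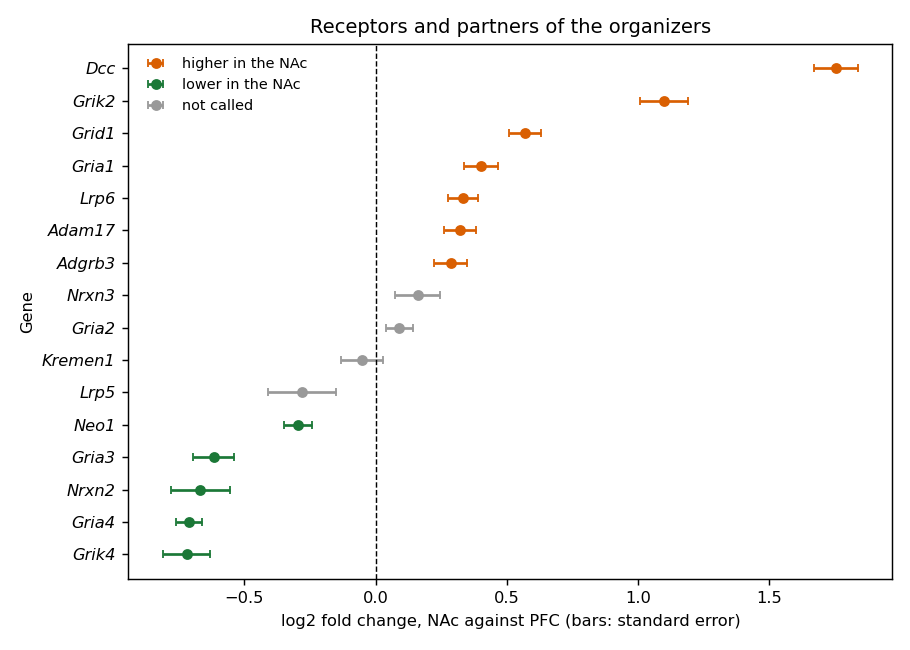
The log2 fold change of NAc against PFC for 16 of the 18 receptors and partners tested, with bars for the standard error and color for the call. Dcc at 1.75 and Grik2 at 1.10 stand apart on the higher side, and Grik4 at -0.72 is the lowest of those shown.

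Other organizers of synapses were also divided. Of 41 listed, 28 were tested, 9 were higher in the NAc, 10 were lower and 9 were not called, with a median log2 fold change of -0.13. Over all genes 23.7% were called higher and 21.7% lower by the same rule, and the median was 0.016. The C1q-like, cerebellin, neuritin and Dickkopf relatives on the list (C1ql1, C1ql4, Cbln3, Nrn1l, Dkk1, Dkk2, Dkk4 and Dkkl1) were not among the genes tested. They had no row in the filtered NAc and PFC table. Differences the size of those of the members were seen in the lower direction. Olfm1, a secreted olfactomedin that binds AMPA receptor complexes, had a log2 fold change of -2.10 (SE 0.17, edgeR adjusted p = 7.6e-15), and Olfm2 one of -1.82 (SE 0.17, adjusted p = 6.5e-13). Thbs2, a thrombospondin, had -2.12 (SE 0.21, adjusted p = 5.0e-12). The astrocyte-secreted organizers Chrdl1 and Gpc4 had -1.99 (SE 0.12, adjusted p = 2.3e-19) and -1.39 (SE 0.23, adjusted p = 1.2e-06). On the higher side, Wnt7a had 1.48 (SE 0.11, adjusted p = 6.6e-16), Olfm3 had 1.12 (SE 0.11, adjusted p = 1.5e-12) and Lgi2 had 1.05 (SE 0.073, adjusted p = 4.0e-17). Across NAc libraries, r with Slc17a7 was 0.92 for Olfm1, Olfm2 and Gpc4, 0.81 for Thbs2 and -0.31 for Chrdl1. It was 0.71 for Lgi2, 0.59 for Olfm3 and 0.41 for Wnt7a. The part of punch content in these differences was not tested.

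How the members moved with each other depended on the region, given here as r of log2 CPM over libraries and as a description. In the NAc, C1ql3, Cbln2, Nrn1, Nptx1 and Nptxr had r of 0.70 to 0.93 between each pair, and of 0.64 to 0.93 without NAc J1199. In the PFC Nrn1 ran against Nptx1 (r = -0.85) and Nptxr (r = -0.68) but had an r of only -0.17 with Nptx2, and C1ql3 against Cbln2 with -0.68. In the SCN Cbln1 went with Nrn1 (r = 0.73) and Nptx1 (r = 0.67), and Cbln2 ran against Dkk3 (r = -0.69). Without SCN J1199, SCN J1140 and SCN J1018 these were 0.80, 0.66 and -0.69. Scores of other cells moved with the same genes. The ependymal score had an r of -0.55 with Cbln1, -0.48 with Nrn1 and -0.42 with Nptx1, or -0.78, -0.58 and -0.64 once SCN J1199 and SCN J1140 were removed. The oligodendrocyte score had an r of 0.72 with Dkk3 and -0.57 with Cbln2, or 0.77 and -0.58 without those 2 libraries. The part of punch content in these pairs was not tested.

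The genes outside the list whose levels were nearest to each member also differed by region. In the SCN, C1ql3 was nearest to Fbxl21 (r = 0.97), Syt10 (r = 0.96), itself part of the SCN neuron score, and Rgs16 (r = 0.94). C1ql2 was nearest to the neuropeptide Y receptor Npy2r (r = 0.84), Oprk1 (r = 0.84) and Hs3st5 (r = 0.83). Cbln1 was nearest to Slc17a6 (r = 0.92), the vesicular glutamate transporter of most hypothalamic excitatory neurons, then Cabp7 and Cdk14. Among the 3 genes nearest to Cbln2 were Cntnap4 (r = 0.88) and Htr2c (r = 0.83). In the NAc, Slc17a7 was among the 3 nearest genes of Cbln2, Nrn1 and Nptx1. C1ql3 was nearest there to Oxr1, Gpc4 and Ipcef1 (r = 0.95 each), and Nptxr to Olfm1 (r = 0.97). The members that did not follow Slc17a7 had other neighbours in the NAc. Cbln4 was nearest to Sox11 (r = 0.83), Dbx2 (r = 0.81) and Slc25a18 (r = 0.80), and Nptx2 to St3gal5 (r = 0.86), Fgf13 (r = 0.84) and Ldlrad4 (r = 0.82). Dkk3 was nearest to Hspa2 (r = 0.82) in the NAc, Sfrp5 (r = 0.83) in the SCN and Ttll1 (r = 0.94) in the PFC. The order of some neighbours changed without the libraries that stand apart. With SCN J1199, SCN J1140 and SCN J1018 left out, Fbxl21 had an r of 0.89 with C1ql3 and was behind Syt10 (r = 0.93), now its nearest gene, and Npy2r had 0.84 with C1ql2, behind Oprk1 (r = 0.86). Slc17a6 stayed nearest to Cbln1 (r = 0.94) and Cntnap4 to Cbln2 (r = 0.91). Without NAc J1199, Slc17a7 remained among the 3 nearest genes of Cbln2, Nrn1 and Nptx1.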

How the data were processed

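The authors deposited gene counts, one table for the SCN and one for the NAc and PFC, made without normalization from SmartSeq HT libraries sequenced as 75 bp paired ends, checked with FastQC 0.11.7, then aligned with HISAT2 (Ensembl GRCm38) and counted by HTSeq, union mode. The authors had filtered the genes before deposit. The tables held no gene of the Y chromosome, and filterByExpr removed no further row. Gene positions and exon lengths came from GENCODE M21.

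Levels are CPM after TMM within a table. The NAc and PFC were compared by the quasi-likelihood test of edgeR 4.0.16 (R 4.3.3) over all genes, with calls at a fold of 1.2 or more and a Benjamini-Hochberg adjusted p below 0.05. DESeq2 1.42.0 was tried in its place. The edgeR test gives no standard error. The SE of its log2 fold changes was taken as the absolute log2 fold change divided by the square root of the F statistic. NAc and PFC libraries of the same animal are paired, in 17 mice. Their deviations from the region means had correlations of -0.449 to 0.272 (median 0.0061), above 0.1 in 7 mice. Relations used log2 CPM with a prior count of 2 and two-sided permutation tests of 100000 resamples, exact in ranges of 7 libraries, adjusted over 34 relations. The plan had named more, but C1ql2 and Cbln1 had rows for the SCN alone. In simulated counts of the NAc and PFC comparison over 11569 genes, with 200 changed 2-fold, edgeR recovered 198 and made 10 false calls. No libraries were duplicates, as 2 libraries of a region differed by a chi-square per gene of at least 14.8 (NAc), 13.1 (PFC) or 19.6 (SCN). In the fit without a block, edgeR's p-values measure the spread between libraries, with the 2 libraries of a mouse taken as separate. Permutation p-values measure the spread between libraries of a region, each from a different mouse, which includes what each punch held.

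The members and gene lists were chosen with earlier results of these data known. Values were to be given for the members, receptors, at most 12 other listed genes by fold change, and the 3 genes nearest to each member. Those 12 places were taken within the list of other organizers. A few genes that this rule names are not reported here. Fars2, the marker genes and the single genes of the activity score were named after their values were seen. The alternatives covered the tool, scaling, filter and prior count, a block for the mouse, the lower and upper mouse numbers taken alone, rank correlation and leaving out libraries. Leaving out SCN J1018 or NAc J1199 was added after seeing the data. Python 3.11.15, numpy 2.4.6, pandas 2.3.3 and scipy 1.17.1 were used.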

Additional observations from a re-analysis of the deposited data

How the results depend on the processing

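The direction of all 8 members between the NAc and the PFC was the same in all 80 alternative values. All 56 alternative values of r with Slc17a7 in the NAc stayed within the confidence interval of the reported one. That interval is wide where r is small. For Nptx2, reported at -0.29, r ran from -0.55 (lower range of mouse numbers) to -0.12 (without the 2 libraries farthest from the median of Slc17a7). The members were chosen with both contrasts known, so nothing is read from these counts. With the mouse as a replicate block, 5681 genes were called in place of 5254, of which 4938 were shared, and 5743 were called in the same mice without the block. The fit with the block, which holds only the mice with both regions, changed no count of calls by over 1.5 times. It had 15 receptors called in place of 14 and 19 other organizers in both. The added receptor, Lrp5, was also called in the same mice without the block. Receptor calls ran from 11 (upper range of mouse numbers) to 15. For PFC members related to Slc17a7, the count went from 0 to 1 with lower mouse numbers alone. The number of SCN members related to the SCN neuron score fell from 2 to 1 with upper mouse numbers alone, and likewise to 1 when the 2 libraries with the most extreme scores were left out, and was 3 after removal of SCN J1199 and SCN J1140. These alternatives hold fewer libraries. It stayed at 2 without SCN J1018, which was chosen after seeing the data, and without SCN J1165, each with C1ql2 and C1ql3. The values without NAc J1199, and the pairs and neighbours without libraries that stand apart, were also chosen after seeing the data. The lowest median counts of a member in a region were 79 for C1ql2 and 89 for Nptx2, both in the SCN, and the lowest single count was 2, for Cbln2 in the NAc.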
